A study of Mus musculus with 33 samples.

Results

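The genes described here are the histones of the mouse oocyte, the proteins around which DNA is wound. They were taken from the deposited count table by symbol: every entry whose name begins with Hist and a number, H1f, H2af, H2ac, H2ax, H2az, H2bc, H2bu, H3f, H3c or H4c, and Cenpa, with pseudogene names left out. This gave 76 of 35321 genes. Of these, 62 are replication-dependent genes, 10 are variants with genes of their own (the linker histones *H1f0*, *H1f7*, *H1f8* and *H1f10*, and *H2ax*, *H2az1*, *H2az2*, *H3f3a*, *H3f3b* and *Cenpa*), and 3 are germline histones that lie within the clusters (*H2ac1*, *H2bc1* and *H1f6*, which encode TH2A, TH2B and H1t). The last entry, *H3f3aos*, is a transcript opposite to *H3f3a* and not a histone gene. It had 37 reads over all oocytes and is kept apart.

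Germinal vesicle (GV) oocytes came from ovaries of 3-week-old mice, and their RNA was sequenced 1 oocyte at a time. The 33 libraries comprised 10 of genotype *Nlrp5* +/+, 16 of *Nlrp5* +/- and 7 of *Nlrp5* -/-, in a line that carries a CRISPR/Cas9 deletion of 5 bp in *Nlrp5*, a gene of the subcortical maternal complex, on a C57BL6/Babr background. Staging by transcripts had placed 4 +/+, 9 +/- and 4 -/- oocytes at the non-surrounded nucleolus (NSN) stage and 6, 7 and 2 at the later, surrounded nucleolus (SN) stage, and oocyte 15 (-/-) has no stage. These numbers were read from the staging heatmap of the paper, whereas a supplementary caption prints 4 NSN and 6 SN for +/-. The -/- and +/- females were littermates, whereas +/+ females usually came from the founding colony. Each first index sequence in the column names occurs with only 1 genotype. Effects of colony or index and of genotype can therefore not be told apart. Within +/-, oocytes 61, 62, 63 and 64 share 1 first index and are all NSN. Oocytes 37, 38, 39 and 40 share another and are all SN, so index and stage are partly tied in +/-.

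Each oocyte yielded between 4223595 and 15573360 counts on genes. *Nlrp5* itself had median normalized counts of 15684 and 11257 in +/+ oocytes at NSN and SN, 8233 and 6232 in +/- and 2160 and 2182 in -/-. The 9 oocyte markers looked at (such as *Gdf9*, *Bmp15* and *Zp3*) were all present, at 21759 to 39774 CPM (counts scaled to the total of each library) in sum. A list of 16 granulosa cell genes, all of them detected, summed to 285 to 748 CPM in staged oocytes and 1618 CPM in oocyte 15. The staged library with the most was oocyte 14 (-/-, NSN), which also had 217 CPM over 6 theca and interstitial genes, and another staged library, oocyte 61 (+/-, NSN), had 312 CPM over these genes against a median of 12.9. Since the labels name no mouse, oocytes of 1 genotype and stage stand here for 1 sample, and no test between groups was made. Values are normalized counts (counts divided by a size factor of the library), means are over oocytes with the SD between oocytes, and folds are of means after adding 1. A gene entered a comparison with a mean of at least 10 over the oocytes of both groups. A gene low in 1 group can thus enter through the other, as *H4c14*, *H4c4*, *H1f4*, *H2bc1* and *H2bc9* did in some comparisons. A difference of at least 2-fold is given beside the share of all genes, under the same filter, that differed as much.

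Replication-dependent histone genes stand in clusters, are transcribed in S phase and make mRNAs that end in a stem-loop in place of a poly(A) tail. Most variants are made outside S phase too, from polyadenylated mRNAs of which some are spliced, and can be deposited without replication: H3.3 replaces H3 at transcribed and regulatory chromatin, H2A.Z marks promoters, H2A.X is phosphorylated at DNA breaks and CENP-A marks centromeres. A GV oocyte is arrested long after its last S phase, stores histone mRNA and protein for the embryo, and wraps its chromatin with an oocyte linker histone (H1foo, gene *H1f8*) in place of most somatic H1. The libraries were primed on poly(A), so counts on replication-dependent genes cover those transcripts that carry adenylated ends.

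The stem-loop is shown first because it is the mRNA end typical of replication-dependent genes. The conserved letters of the histone stem-loop were searched on the transcript strand of the canonical GENCODE transcript of each gene. It was present in 40 of 62 replication-dependent genes and in 0.666% of 21770 protein-coding canonical transcripts. The 3 most frequent forms among the replication-dependent genes, with the matched letters in capitals, were the following.
Form in 24 genes: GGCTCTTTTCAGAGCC
Form in 6 genes: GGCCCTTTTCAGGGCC
Form in 5 genes: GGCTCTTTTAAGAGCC
Among variants, only *H2ax* held the letters, as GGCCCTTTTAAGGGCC with 822 bases after it, and this gene is known to make both a stem-loop and a polyadenylated mRNA. Among germline genes only *H1f6* held the letters, with 185 bases after them. The 22 replication-dependent transcripts without the letters had a median annotated length of 428 bases, and the search says nothing about ends that are not annotated.

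Promoters of 4 genes whose levels are described in detail are given next, from RefSeq on GRCm38.p6, each from 250 bases before to 50 bases after the annotated start, on the strand of the gene. Capitals mark the TATA box letters TATAAA, the letters CCAAT of the NF-Y motif, and the octamer ATTTGCAT, each on either strand. No copies of different motifs overlap in the windows shown.
*H1f8*, chr6:115944681-115944980 (+): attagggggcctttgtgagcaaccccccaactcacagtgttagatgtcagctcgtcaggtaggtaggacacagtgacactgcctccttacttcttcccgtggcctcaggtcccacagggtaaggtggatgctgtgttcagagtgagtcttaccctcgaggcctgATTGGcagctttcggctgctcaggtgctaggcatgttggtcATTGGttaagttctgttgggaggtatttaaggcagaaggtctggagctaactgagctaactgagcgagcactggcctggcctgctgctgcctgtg
*H2az1*, chr3:137864237-137864536 (+): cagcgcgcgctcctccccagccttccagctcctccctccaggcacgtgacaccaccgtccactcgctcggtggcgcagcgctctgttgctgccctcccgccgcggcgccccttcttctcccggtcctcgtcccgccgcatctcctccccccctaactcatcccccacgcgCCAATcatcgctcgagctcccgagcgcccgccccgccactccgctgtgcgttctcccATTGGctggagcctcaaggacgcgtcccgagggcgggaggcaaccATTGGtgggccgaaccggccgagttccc
*H2az2*, chr11:6444394-6444693 (-): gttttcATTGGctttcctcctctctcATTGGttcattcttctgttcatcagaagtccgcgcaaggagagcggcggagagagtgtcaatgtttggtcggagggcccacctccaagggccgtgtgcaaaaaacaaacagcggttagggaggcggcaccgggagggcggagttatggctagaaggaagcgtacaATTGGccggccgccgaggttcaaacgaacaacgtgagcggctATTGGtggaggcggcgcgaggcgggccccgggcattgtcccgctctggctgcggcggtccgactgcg
*H2ac1*, chr13:23934187-23934486 (+): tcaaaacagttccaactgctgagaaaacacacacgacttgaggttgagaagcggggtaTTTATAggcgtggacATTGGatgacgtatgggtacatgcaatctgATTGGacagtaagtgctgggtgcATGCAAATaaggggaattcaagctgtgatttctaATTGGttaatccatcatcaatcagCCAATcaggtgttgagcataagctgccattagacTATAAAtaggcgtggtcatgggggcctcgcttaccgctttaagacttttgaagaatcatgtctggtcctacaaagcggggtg
*H2ac1* and *H2bc1* are divergent neighbours, so the stretch printed for *H2ac1* also holds most of the *H2bc1* promoter (chr13:23934107-23934406 on the minus strand). In these windows TATAAA was found for *H2ac1* and *H2bc1* and not for *H1f8*, *H2az1* or *H2az2*. Over the 68 members with a RefSeq promoter, TATAAA was present in 33 of 56 replication-dependent genes, 1 of 9 variants (*H3f3b*) and 2 of 3 germline genes, against 14.2% of 27025 promoters. CCAAT was present in 48 of 56, 6 of 9 and 3 of 3, against 37.9%. The octamer ATTTGCAT was present in 10 of 56, 1 of 9 and 2 of 3, against 1.75%, and both germline genes that hold it share the same copy.

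In these poly(A)-primed libraries the oocyte linker histone was the most abundant histone transcript by a wide margin. *H1f8* (chr6:115944938-115950236, GRCm38) had a mean normalized count of 28024 ± 8407 (SD, n = 32), which made it the gene with rank 10 of all genes by this measure. It ranged from 1946 to 7162 CPM over 33 oocytes. All other linker histone genes together were small beside it, since *H1f8* took 96.1% to 99.0% of linker histone counts in every oocyte. Among the others, *H1f0*, the linker histone of quiescent cells, reached 319 ± 68.4, and the replication-dependent *H1f1* and *H1f2* 93.2 ± 41.0 and 52.1 ± 37.3. *H1f7*, a spermatid linker histone, had no read in any oocyte, and *H1f6* (H1t) had a mean of 0.143.

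To compare levels between genes, the mean normalized count was divided by the length of the canonical transcript. On this scale (normalized counts per kb) *H1f8* stood at 25067, followed by the 2 genes of H3.3, *H3f3b* at 2736 and *H3f3a* at 1056. *H2bc4*, a replication-dependent H2B gene, was next with 836. *Cenpa* (466), *H2az1* (451), the germline gene *H2ac1* (409), *H2az2* (324), *H2ax* (281), *H2bu2* (181), *H1f0* (155) and *H1f1* (126) completed the list of members above 100.

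**Figure D1:**
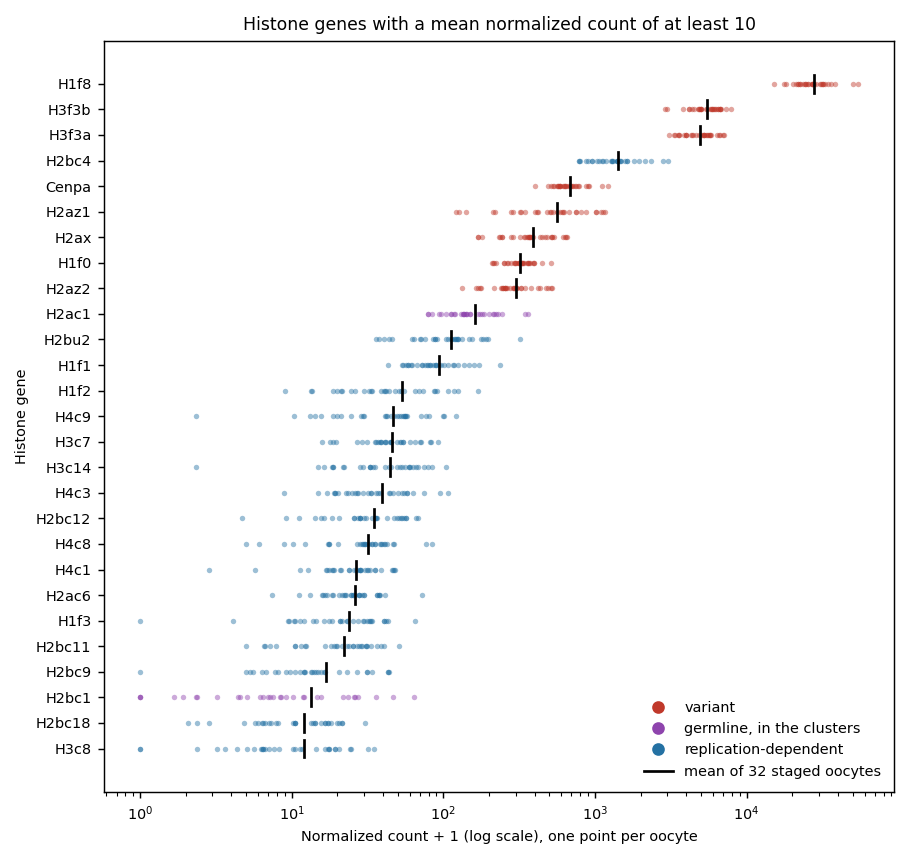
Normalized counts (plus 1, log scale) of the 27 histone genes with a mean of at least 10, with 1 point per staged oocyte and a bar at the mean of 32 oocytes. Variants (red) fill 8 of the 9 highest places, *H2bc4* is the only replication-dependent gene (blue) among them, and *H2ac1* and *H2bc1* are the germline genes (purple).

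The core histone families differed in which class gave most of the counted transcripts. The counts cover adenylated transcripts only, and reads shared between similar members may be missing. For H3, the 3 variants summed to 4257 normalized counts per kb and the 12 replication-dependent genes to 102. For H2A, the 3 variants gave 1056, the germline gene *H2ac1* gave 409 and the 16 replication-dependent genes gave 30.5. H2B came from replication-dependent genes (1185), with *H2bc4* alone at 836 and the germline gene *H2bc1* at 32. The 12 H4 genes, which encode the same protein and have no variant, summed to 235, and their highest members were *H4c8* (65.5) and *H4c9* (62.5). All 8 variants with a mean of at least 10 had reads in all 33 oocytes, as had 14 of 62 replication-dependent genes. The median member of the replication-dependent class had a mean normalized count of 1.23.

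*H2bc4* (chr13:23684199-23692908) made up 47.7% to 82.3% of replication-dependent counts in each oocyte. Its canonical transcript has 2 exons and does not hold the stem-loop letters. Per oocyte it varied from 96.9 to 391 CPM, and the 3 libraries above 300 CPM were the +/- NSN oocytes 61, 64 and 63 at 391, 360 and 302 CPM. They share their first index with oocyte 62, which had 124 CPM. The other 61 replication-dependent genes together gave 47.1 to 162 CPM.

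Transcript annotation and level went together within the replication-dependent class. The 19 genes whose canonical transcript runs at least 100 bases past the stem-loop had a median mean normalized count of 8.74 (range 0.0226 to 111), and 9 of them reached 10. The 21 genes that end within 100 bases of the stem-loop had a median of 0.399 (0 to 33.7), and 3 reached 10. The 22 genes without the stem-loop letters had a median of 0.254 (0 to 1427), and 5 reached 10. These groups also differ in length (medians 1249, 482 and 428 bases), and per kb their medians were 5.05, 0.927 and 0.46. They further differ in the share of 100-base windows of a transcript that another member also holds, with medians of 14%, 52.4% and 57.1%, so reads that could not be assigned to 1 gene may be missing to different degrees. The share of reads lost in this way was not tested.

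Position in the genome went with level as well. The block of chromosome 13 from 21715763 to 21837530 holds 18 members, and these had 201 reads in all over 33 oocytes, from 0 (*Hist1h2br*) to 49 per gene. Its neighbour from 22035164 to 22043676 holds 5 members with 3839 reads, among them *H4c9* with 1697. The largest block, from 23531050 to 23764406, holds 29 members with 62696 reads, of which 48298 were on *H2bc4*, while *H2ac7* within it had none. On chromosome 3, 10 members between 96219865 and 96270132 had 2732 reads, of which *H3c14* took 1581. The median share of windows held in common with another member was 74.6% in the first block, 70.8% in the second, 30.7% in the third and 19.7% on chromosome 3. The median gene of the first block had 5.5 reads and that of the second 788, and the part of shared windows in these levels was not tested.

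**Figure D2:**
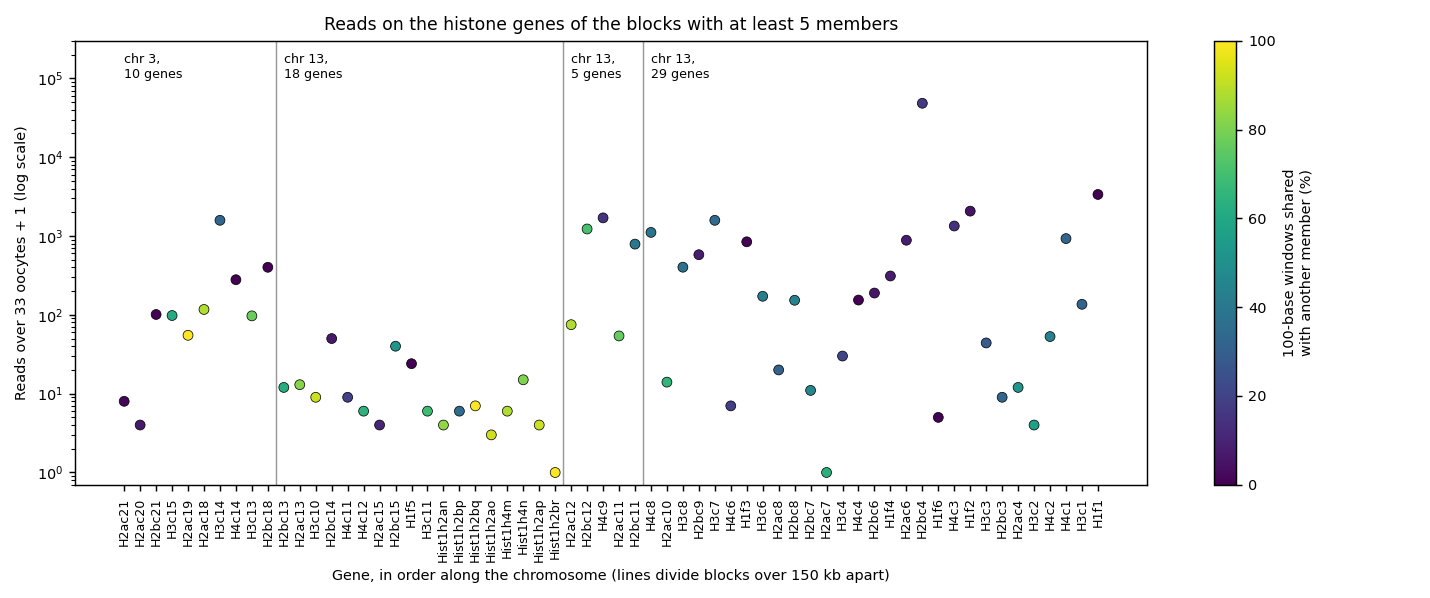
Reads over 33 oocytes (plus 1, log scale) on each histone gene of the 4 blocks with at least 5 members, in order along chromosomes 3 and 13, coloured by the share of 100-base windows of the transcript found in another member. The 18 genes of the first chromosome 13 block lie at or below 49 reads, and *H2bc4* stands at 48298.

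The first set of comparisons asked how histone transcripts differ between NSN and SN oocytes of the same genotype. The H2A.Z genes differed in the mean in opposite directions, and only in +/+ oocytes did the stages not overlap. *H2az1* (chr3:137864487-137866922), which encodes H2A.Z.1, was higher in NSN oocytes, and *H2az2* (chr11:6427229-6444443), its paralog, was lower. The linker gene *H1f8* was lower in NSN than in SN oocytes in +/+ and -/-, by less than 2-fold. The germline H2B gene *H2bc1* was lower in NSN oocytes of every genotype.

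In +/+ oocytes *H2az1* had normalized counts of 607, 513, 1123 and 869 at NSN and between 121 and 504 (median 282) in the 6 SN oocytes, and the stages did not overlap. The means were 778 ± 275 and 299 ± 166 (SD), a fold of 2.59 (log2 1.38). In +/- oocytes it ranged from 527 to 1103 (median 748) at NSN and from 141 to 627 (median 326) at SN, with means of 804 ± 202 and 326 ± 162 and a log2 of 1.30. Only oocyte 55, whose stage could be read with less certainty, reached into the NSN range, and without it the log2 was 1.54. In -/- oocytes the NSN values were 611, 1159, 319 and 565 and the SN values 403 and 422, with a log2 of 0.68. The highest of these was oocyte 14, which had the most granulosa marker counts, and without it the log2 was 0.27.

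*H2az2* was chosen for description after its values were seen, as the paralog of *H2az1*. In +/+ oocytes it stood at 261, 248, 175 and 164 at NSN and between 289 and 477 at SN, again without overlap, with a log2 of -0.72. In +/- oocytes the values were 131 to 520 and 238 to 423, which overlapped widely (log2 -0.31), and in -/- they were 253 to 491 against 514 and 323 (log2 -0.37). The ratio of both genes within a library needs no scaling between libraries. *H2az1* over *H2az2* was 2.07 to 6.42 in +/+ NSN oocytes and 0.402 to 1.58 in +/+ SN oocytes. In +/- it was 1.56 to 5.87 at NSN and 0.515 to 2.63 at SN, where the highest was oocyte 55. In -/- it was 1.26 to 2.40 at NSN and 0.785 and 1.31 at SN, so that the lowest NSN oocyte lay below the higher SN oocyte.

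*H1f8* had 24203, 23713, 17588 and 22565 normalized counts in +/+ NSN oocytes and 27111 to 50332 in SN oocytes, and no NSN oocyte reached the lowest SN value (log2 -0.61). In -/- oocytes the values were 18088, 24490, 15047 and 21245 against 38098 and 25446, also apart (log2 -0.69). In +/- oocytes they overlapped throughout, at 20163 to 54692 and 22601 to 34203, with a log2 of -0.01. The +/- NSN mean was raised by oocyte 56, which at 54692 stood far above the next (31936), and without it the log2 was -0.18. *H3f3a* was 3079 to 3968 at NSN against 5172 and 4369 at SN in -/- (log2 -0.45). It was 3893 to 5245 against 4304 to 7049 in +/+, where the stages overlapped. *Cenpa* did not reach a 2-fold difference in any of the 9 comparisons, and its means in +/+ oocytes were 704 ± 146 at NSN and 782 ± 240 at SN.

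**Figure D3:**
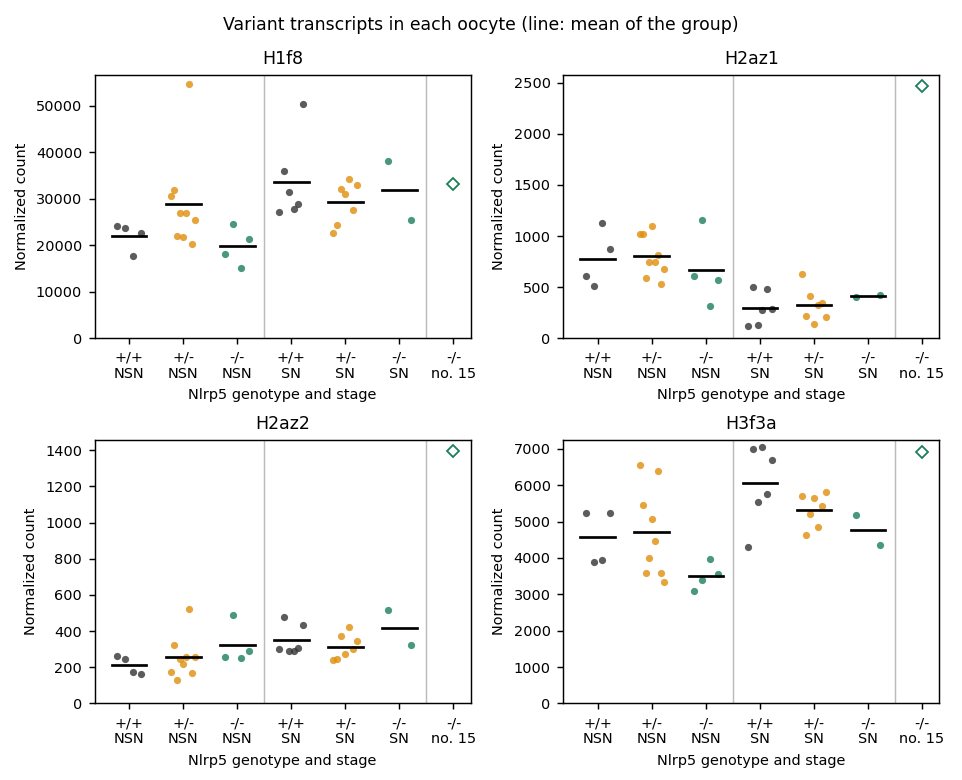
Normalized counts of *H1f8*, *H2az1*, *H2az2* and *H3f3a* in each oocyte by genotype and stage, with a bar at the group mean and oocyte 15 shown alone as a diamond. In +/+ oocytes the NSN and SN values of *H2az1*, *H2az2* and *H1f8* do not overlap, and oocyte 15 stands above all others for *H2az1* (2464) and *H2az2* (1394).

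*H2bc1* (chr13:23933773-23934156), which encodes TH2B, was a low transcript. In +/+ oocytes it had 0, 0.922, 2.22 and 7.54 normalized counts at NSN and 5.15 to 26.5 at SN (log2 -2.21, and -3.05 without oocyte 78), so that 1 NSN oocyte lay above the lowest SN oocyte. Pooled over oocytes, NSN against SN, this was 0.325 CPM (95% Poisson interval 0.168 to 0.567) against 1.90 CPM (1.58 to 2.25), where the intervals cover counting error only. In +/- oocytes the values were 0 to 34.9 (median 3.39) and 1.33 to 45.9 (median 9.21), with a log2 of -1.35. The highest +/- NSN value was again that of oocyte 56, and without it the log2 was -2.41 and the mean was under 10. In -/- oocytes they were 7.38, 6.24, 11 and 5.94 against 63.4 and 22.4, without overlap (log2 -2.34, and -1.44 without oocyte 7). Its divergent neighbour *H2ac1*, which encodes TH2A and was added after its values were seen, was lower at NSN in +/+ (104 ± 33.2 against 164 ± 53.9, log2 -0.65) and -/- (176 ± 47.7 against 288, log2 -0.71) and stood at 162 ± 79.5 against 138 ± 45.5 in +/- (log2 0.22, and -0.02 without oocyte 56).

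Among replication-dependent genes, *H2bc9*, an H2B gene, was higher at NSN in +/+ (28.3 against 9.58, log2 1.47) and +/- (20.3 against 8.77, log2 1.13). *H4c14* was higher at NSN in +/+ oocytes (20.8 against 3.73, log2 2.20), and of the NSN values 6.05, 11.1, 44.5 and 21.7 the lowest lay below the highest SN value of 7.79. In +/- oocytes *H4c9* (67.1 against 30.7, log2 1.10) and the linker gene *H1f4* (13.8 against 5.54, log2 1.18) were also higher at NSN. *H1f4* overlaps *H2bc6* on the same strand in the table, so the reads of the pair cannot be told apart in the shared stretch.

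In -/- oocytes the SN pair had more of 3 H4 genes than the NSN oocytes. *H4c3* stood at 24.0, 13.9, 7.89 and 36.3 at NSN against 94.4 and 106 at SN (log2 -2.23), without overlap. *H4c4*, which passed the filter only through the SN pair, stood at 0 to 1.85 against 29.7 and 35.5, also without overlap. This rests on 2 reads at NSN against 71 at SN, a ratio of pooled CPM of 66.9 with a 95% interval for counting error of 17.9 to 563. *H4c1* stood at 1.85 to 45.5 against 44.5 and 37.6 (log2 -1.02), and here the highest NSN oocyte lay above both SN oocytes. Its log2 was -1.79 without oocyte 30 and under 2-fold in size without oocyte 13 (-0.65), 29 or 7. *H4c9* went the other way, with 27.7, 46.4, 18.9 and 48.8 at NSN and 12.1 and 9.41 at SN (log2 1.63). All 4 genes encode the same H4 protein. The summed H4 level was 5.10 to 20.5 CPM in -/- NSN oocytes and 30.8 and 32.2 CPM in -/- SN oocytes, whereas in +/+ it was 16.8 to 33.7 CPM at NSN and 13.3 to 19.6 CPM at SN.

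Counts over the classes put these genes in context. Between NSN and SN in +/+ oocytes, 3 of 28 members tested were at least 2-fold higher at NSN, against 8.82% of 13576 genes, and 1 was lower, against 3.97%. In +/- it was 4 of 27, against 7.21%, and 1, against 2.02%. In -/- it was 1 of 28, against 11.4%, and 4, against 3.32%. Without oocyte 14 the -/- counts were 1 and 5, and without oocyte 61 the +/- counts were 3 and 1. Oocyte 61 stands next to oocyte 55 in the heatmap of stages and its stage was likewise read with less certainty, and without it the +/- median log2 of replication-dependent members was 0.11 in place of 0.42. Leaving out oocyte 31 gave 9 members past 2-fold in -/- in place of 5, and leaving out oocyte 56, 62 or 46 gave 2, 3 and 3 in +/- in place of 5. Stages without overlap of oocytes were seen for 3 members in +/+ (1 higher, against 6.07%, and 2 lower, against 3.73%), for 0 in +/- (against 0.823% and 0.514%) and for 8 in -/- (1 higher, against 10.8%, and 7 lower, against 9.47%). The median log2 of replication-dependent members was 0.27, 0.42 and -0.20 in +/+, +/- and -/-, that of variants -0.18, -0.09 and -0.17, and that of all genes -0.03, 0.05 and 0.05.

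The second set of comparisons asked how -/- oocytes differ from +/+ oocytes of the same stage. Some sums over markers of other ovarian cells differed between genotypes. The 6 theca and interstitial genes, all detected, summed to 4.57 to 6.37 CPM at NSN and 2.93 to 5.20 CPM at SN in +/+ oocytes, to 7.27 to 312 and 6.86 to 45.9 CPM in +/-, and to 13.5 to 217 and 11.7 to 21.8 CPM in -/-, so that at both stages +/+ lay below both other genotypes. The 12 genes of stroma, vessel and blood, all detected, summed to 46.2 to 75.5 CPM in +/+ and 86.2 to 121 CPM in -/- at NSN, without overlap. At SN they summed to 73.0 to 87.6 and 77.3 to 98.2 CPM, with overlap. The highest of them was *Pecam1* (mean 511, lowest 291 normalized counts). The rest had means of at most 24.3 and a lowest value of 0. The 16 granulosa genes overlapped at both stages. Their highest members were *Serpine2* (mean 1859, lowest 1303), *Cyp19a1* (407 and 60.8) and *Nr5a2* (274 and 142). Both sums thus rest largely on few genes with counts in every oocyte. The part of other ovarian cells in the differences between genotypes was not tested. At NSN few histone genes stood apart: *H4c14* was lower in -/- (1.85, 0.693, 0 and 5.94 against 6.05 to 44.5, log2 -2.81), with no overlap, as was *H4c8* (16.6, 37.4, 7.89 and 16.5 against 38.3, 83.0, 19.3 and 33, log2 -1.11), where the groups overlapped. These were 2 of 27 members tested, against 3.21% of 13833 genes, and 0 were higher, against 4.93%. Members without overlap numbered 0 higher, against 3.96%, and 1 lower, against 3.14%. Variants differed by less than 2-fold throughout, between -0.39 and 0.60 on the log2 scale. The count past 2-fold was 1 without oocyte 29, 87 or 79 and 4 without oocyte 30. *H4c14*, the member without overlap, passed the filter only through its +/+ oocytes, and its log2 was -3.56 without oocyte 30. Without oocyte 87 the log2 of *H4c8* was -0.60, under 2-fold. *H1f8* (19717 ± 4065 against 22017 ± 3032, log2 -0.16) overlapped. The germline gene *H2ac1* stood at 176 ± 47.7 in -/- and 104 ± 33.2 in +/+ (log2 0.76), with 3 of the 4 +/+ values below the lowest -/- value of 135.

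At SN, 4 of 25 members were at least 2-fold higher in -/- than in +/+, against 4.07% of 13351 genes, and 1 was lower, against 5.99%, and without oocyte 31 the count in either direction was 8 in place of 5. Among H4 genes, *H4c3* at 94.4 and 106 lay above all 6 +/+ oocytes (18.3 to 73.2, log2 1.30), and *H4c9* at 12.1 and 9.41 lay below all of them (17.7 to 55.2, log2 -1.76). These comparisons share the -/- SN oocytes, and *H4c3* had higher values in these 2 than in any of the other 31 libraries. *H2bc1* was higher in the mean (42.9 against 16, log2 1.37), but of the -/- values 63.4 and 22.4 the second lay inside the +/+ range, and without oocyte 7 the log2 was 0.47. *H1f2* and *H1f3*, replication-dependent linker genes, were at 20.2 and 167 and at 9.44 and 63.7 in the -/- pair, and their log2 of 1.11 and 1.16 turned to -1.05 and -0.68 without oocyte 31. *H4c1*, at 44.5 and 37.6 against 11.8 to 30.9 (log2 0.86), also lay above all +/+ oocytes. *H3f3b* was lower in -/- (2985 and 4867 against 4970 to 7293, log2 -0.71), with no overlap, and it was the 1 variant of 8 with that property. Members without overlap thus numbered 2 higher, against 7.24%, and 2 lower, against 7.85%. *H1f8* overlapped (38098 and 25446 against 27111 to 50332, log2 -0.08).

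**Figure D4:**
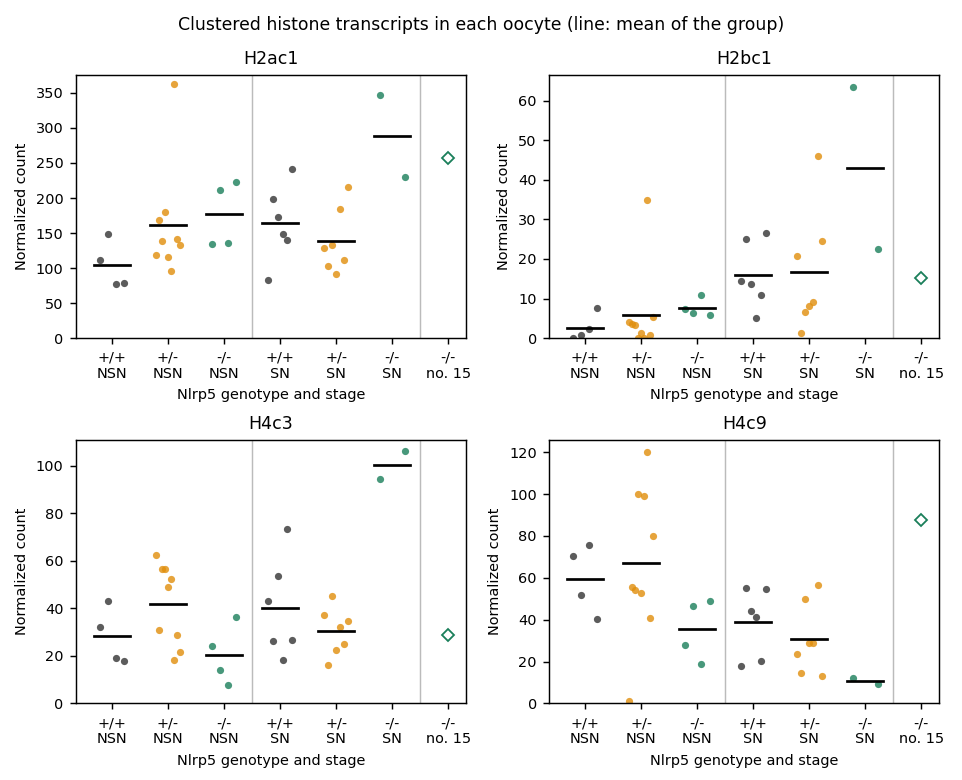
Normalized counts of *H2ac1*, *H2bc1*, *H4c3* and *H4c9* in each oocyte by genotype and stage, with a bar at the group mean and oocyte 15 as a diamond. The 2 -/- SN oocytes have the highest *H4c3* values of all (94.4 and 106) and the lowest *H4c9* values among SN oocytes (12.1 and 9.41).

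The -/- oocytes were also compared with their +/- littermates. At NSN the 1 member at least 2-fold apart was *H1f4*, lower in -/- (0 to 10.4 against 0 to 28.8, log2 -1.71, and -2.73 without oocyte 14). This was 1 of 26 members, against 3.43% of 13856 genes, with 0 higher, against 3.07%, and 4 were past 2-fold without oocyte 14 or 30, 2 without oocyte 13, 61, 63 or 45, and 0 without oocyte 62. Members without overlap numbered 0 higher, against 0.476%, and 0 lower, against 0.686%. *H1f8* had a log2 of -0.55 with overlap. At SN, 7 of 26 were higher, against 3.35% of 13331 genes, and 1 was lower, against 5.56%. Members without overlap numbered 4 higher, against 5.25%, and 1 lower, against 5.81%. Among the 7, the 2 -/- oocytes lay above all 7 +/- oocytes for *H4c3* (16 to 45.4 in +/-, log2 1.68), *H4c4* (0 to 14, log2 2.66), *H1f1* (135 and 235 against 57.3 to 99.4, log2 1.24) and *H2ac1* (230 and 347 against 92.2 to 216, log2 1.05). *H4c4* passed the filter only through the 2 -/- oocytes. Without oocyte 7, *H1f1* was at 0.78 and *H2ac1* at 0.73, both under 2-fold. For *H1f2* (log2 1.56), *H1f3* (1.14) and *H2bc1* (1.32) the groups overlapped, and without oocyte 7 *H2bc1* was at 0.41. *H4c9*, the lower one, stood at 9.41 and 12.1 against 13.3 to 56.6 (log2 -1.43). Without oocyte 7 the count past 2-fold in either direction was 4 in place of 8, and *H1f2* and *H1f3* turned to -0.60 and -0.71 without oocyte 31.

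The last comparison was that of +/- with +/+ oocytes. At NSN 1 of 27 members was at least 2-fold lower in +/-, *H4c14* (6.67 against 20.8, log2 -1.51), against 1.09% of 13732 genes. *H4c14* passed the filter only through its +/+ oocytes. At NSN 0 members were higher, against 2.03%. At SN 0 of 25 members were past 2-fold in either direction, against 1.14% higher and 0.805% lower of 13295 genes, and log2 values lay between -0.45 and 0.40. Medians over oocytes gave 4 and 1 members past 2-fold at NSN and SN, and leaving out the filter on low means gave 5 and 2. The share of all genes was not computed under these settings, so these counts have no background. At neither stage had a member groups without overlap, against 0.175% higher and 0.269% lower at NSN and 0.0226% and 0.0602% at SN.

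**Figure D5:**
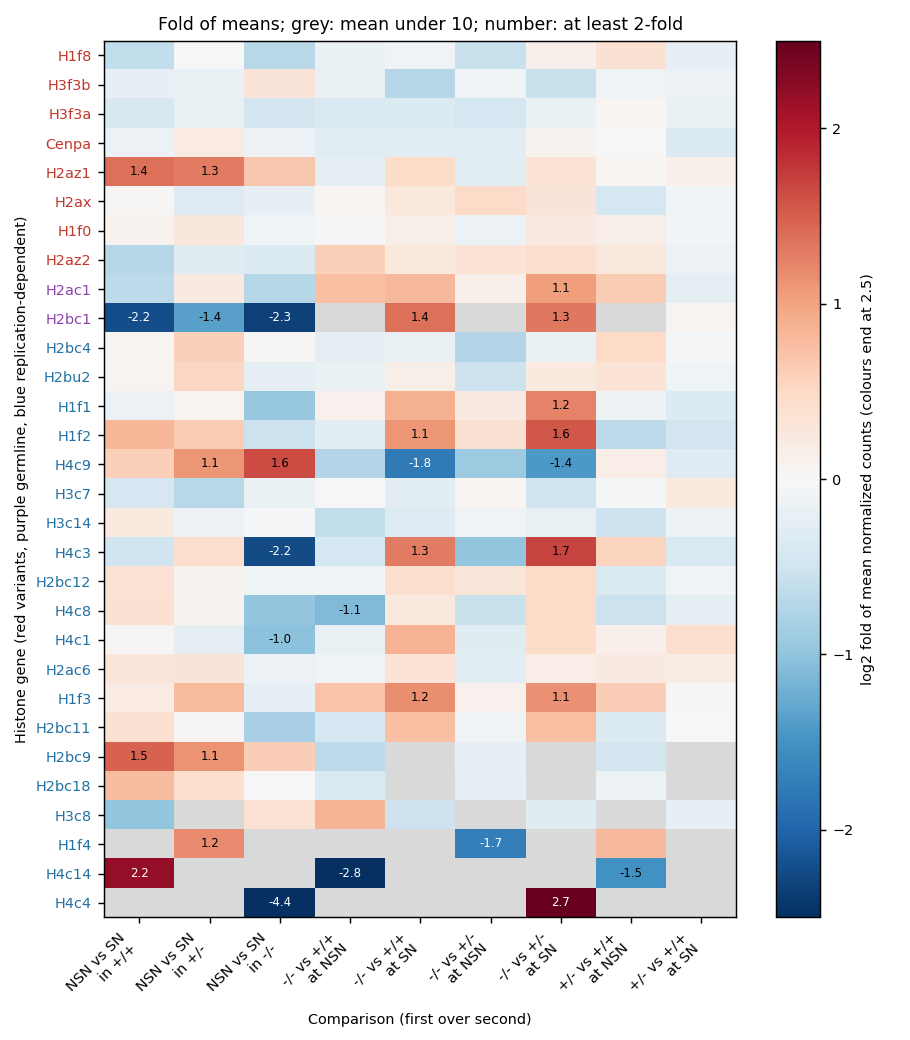
log2 fold of mean normalized counts, first group over second, for every histone gene that entered at least 1 of the 9 comparisons, with values printed where the difference was at least 2-fold and grey where the mean was under 10. *H2az1* is positive in the 3 NSN over SN columns, *H2bc1* is negative in them, and the -/- SN columns hold both higher (*H4c3*) and lower (*H4c9*) H4 genes.

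Summed by class, replication-dependent counts were 242 to 327 CPM in +/+ NSN, 156 to 314 in +/+ SN, 213 to 475 in +/- NSN, 162 to 295 in +/- SN, 182 to 308 in -/- NSN, and 212 and 329 CPM in -/- SN oocytes. These ranges overlapped in all 9 comparisons. Variants other than *H1f8* summed to 1637 to 1792 CPM in +/+ NSN oocytes and 1333 to 1581 in -/- NSN oocytes, which did not overlap, and neither did their sums of theca and stroma genes, while +/- NSN oocytes spanned 1344 to 2067 CPM. At SN the sums were 1612 to 2081 in +/+, 1505 to 1824 in +/-, and 1365 and 1490 CPM in -/-, where both -/- oocytes lay below every other SN oocyte. Scaled by size factors, these sums remained apart at SN (10585 and 11450 normalized counts in -/- against 12979 to 16254 in +/+ and 11946 to 14093 in +/-) and overlapped at NSN (9534 to 12224 in -/- against 11563 to 13300 in +/+). The H3 variants made up 984 to 1862 CPM of these sums over all 33 oocytes. Germline counts were 10.7 to 21.0 CPM in +/+ NSN oocytes, 12.4 to 52.0 in +/- NSN, 18.2 to 30.5 in -/- NSN, 12.2 to 32.6 in +/+ SN, 12.7 to 30.0 in +/- SN, and 32.9 and 53.4 CPM in -/- SN, the second of these being the highest of 33.

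The factors that process and place histones were looked at as well. The 11 genes of histone mRNA processing, such as *Slbp*, whose protein binds the stem-loop, and *Lsm10* and *Lsm11* of the U7 particle, all entered every comparison. The 1 of 11 past 2-fold was *Cstf2*, a cleavage factor subunit, higher at NSN in +/+ oocytes (467 against 170, log2 1.45, with no overlap), where 8.82% of all genes were as much higher. Between -/- and +/+ oocytes at SN, *Slbp* (log2 -0.47), *Casp8ap2* (-0.56), *Npat* (-0.86) and *Eri1* (-0.77) were lower without overlap and *Cstf2* (0.62) higher, against 7.85% and 7.24% of all genes. At NSN over SN in -/- oocytes, 3 of the 11 were higher without overlap, against 10.8% of all genes, and 1 lower, against 9.47%. At NSN over SN in +/+ oocytes it was 1 higher, against 6.07%, and 1 lower, against 3.73%. For -/- over +/+ at NSN 1 was lower, against 3.14%. The remaining comparisons had 0 of the 11 without overlap. The list summed to 1493 and 1533 CPM in -/- SN oocytes, below all +/+ SN (1723 to 2115) and +/- SN oocytes (1631 to 2040). Their median log2 lay between -0.24 and 0.19. Of 33 chaperones and deposition factors, 1 was past 2-fold in each of 3 comparisons and 0 in the other 6. At NSN over SN in -/- it was *Set*, which was higher (109 against 45.6, log2 1.24), as were 11.4% of all genes. In +/- over +/+ at NSN it was *Atrx*, which deposits H3.3 together with *Daxx* and was lower (1552 against 3135, log2 -1.01), as were 1.09% of all genes. In -/- over +/+ at SN 1 member was lower, as were 5.99% of all genes. The median log2 of the list lay between -0.19 and 0.08 over the 9 comparisons. At NSN over SN in -/-, 2 were higher without overlap, against 10.8% of all genes, and 5 lower, against 9.47%. For -/- over +/+ at SN 2 were higher, against 7.24%, and 4 lower, against 7.85%. For -/- over +/- at SN 4 were lower, against 5.81%. There was 1 lower at NSN over SN in +/+ (3.73%) and for -/- over +/- at NSN (0.686%). There was 1 higher for -/- over +/+ at NSN (3.96%) and for +/- over +/+ at SN (0.0226%).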

How the data were processed

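The data are counts of reads per gene in single GV oocytes. Polyadenylated RNA was separated from DNA and amplified, Trim Galore was used for trimming and HISAT2 for alignment. The authors deposited the count of reads on each gene without normalization, after leaving out libraries under 4000000 reads. Gene positions in the table are those of GRCm38. Of 35373 entries, 52 repeats were left out.

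Stages are not in the sample labels and were read by library number from the heatmap of the paper, where they rest on 105 NSN and 59 SN marker genes of the same libraries. No histone gene is on that list. Members and gene lists were chosen with earlier results of these data known. Size factors were the median of ratios over 11845 genes with counts in all oocytes. Genes named are *H1f8*, *Cenpa*, the 8 members with the highest means and, in each comparison, up to 6 in each direction with a mean of at least 10 and a difference of at least 2-fold. Others are named as chosen after their values were seen. Alternatives were other scalings (TMM by edgeR 4.0.16 in R 4.3.3), medians, a pseudocount of 5, no filter or a mean of at least 100, no regard to stage and leaving out each oocyte. The fold was tested on simulated data. A gene on the list of chaperones and deposition factors is counted but not reported by name here. Transcript lengths and stem-loops came from GENCODE transcripts, found for all 76 members, which may differ from the annotation counted on. Whether counting used strand is not given in the sources used here, so overlapping genes cannot be told apart. Scripts ran in Python 3.11.15 with pandas 2.3.3, numpy 2.4.6, matplotlib 3.10.9, scipy 1.17.1 and Biopython 1.88.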

Additional observations from a re-analysis of the deposited data

Results flagged for a closer look

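Of 125 groups of oocytes looked at for a value apart from the rest, 6 had one, and chance alone gives about 1 in 20. Oocyte 56 (+/-, NSN) stood above the other 8 for *H1f8* (54692 normalized counts, next 31936), *H2ac1* (362, next 180) and the germline sum (52.0 CPM, next 23.2). Oocyte 61 (+/-, NSN) had the lowest *H4c9* value of its group, 1.35 against 40.9 for the next. Oocyte 77 (+/+, SN) had 0 normalized counts of *H1f3*, where the next had 8.59. Oocyte 87 (+/+, NSN) had 2.77 of *H4c4*, where the other 3 had 0.

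Oocyte 15 (-/-), which has no stage and entered no comparison between stages, lay above all 10 +/+ oocytes for 8 of 22 members looked at. It also did so for the class sums of germline genes and of variants other than *H1f8*. Its replication-dependent sum (239 CPM) lay inside the +/+ range (156 to 327). Among genes with a mean of at least 10, it did so for 8 of 27 members and 27.6% of 14171 genes. The values for the 8 of 22 were 2464 for *H2az1* (highest +/+ 1123), 1394 for *H2az2* (477), 1572 for *Cenpa* (1213), 480 for *H1f0* (387), 257 for *H2ac1* (241), 145 for *H1f2* (116), 87.4 for *H4c9* (75.6) and 10.9 for *H4c4* (7.23). *H4c4* had a mean under 10 and is not among the 27. Variants other than *H1f8* summed to 2214 CPM (2081) and germline genes to 34.8 CPM (32.6). The same library had the highest marker sums for granulosa cells (1618 CPM), theca (651 CPM), stroma, vessel and blood (264 CPM) and cycling cells (457 CPM), and their part in these values was not tested.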

How the results depend on the processing

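No paired analysis was possible because replicate numbers only follow the order of the samples. Of the values that answer a comparison, 243 of 280 under other settings and 363 of 384 with 1 oocyte left out stayed within the spread between oocytes or, for counts, within 1.5 times. Total count and TMM scaling moved none. The cause of the moves was not tested where the setting itself does not show it. The counts below have no share of all genes beside them, since none was computed under these settings. Without a filter, more low-count members enter, so these counts are no result about histone genes. For members at least 2-fold apart, in the order NSN over SN in +/+, +/- and -/-, then -/- over +/+ and over +/- at NSN and SN, counts without a filter were 10, 14, 19, 10, 17, 6 and 22, and for +/- over +/+ they were 5 and 2. With a mean of at least 100 they were 1, 1, 0, 0, 0, 0 and 2, and 0 for +/- over +/+ at NSN, where the median of replication-dependent members became 0.42. Without a filter that median was 0.11 for NSN over SN in +/-. A pseudocount of 5 gave 2 for NSN over SN in +/- and 1 for -/- over +/+ at NSN. Size factors within the comparison gave 3 for NSN over SN in +/- and 0 for -/- over +/- at NSN. Medians over oocytes gave 3 for -/- over +/- at NSN, 4 and 1 for +/- over +/+, and a replication-dependent median of 0.61 for -/- over +/+ at SN. Without regard to stage, counts were 0 for -/- over +/+ against either stage, 1 for -/- over +/- at SN and 0 for +/- over +/+ at NSN, variant medians 0.16 and 0.13 for -/- over +/+ and +/- at NSN, replication-dependent medians 0.03 and -0.07 for the same at SN, and *H1f8* -0.21 for -/- over +/- at SN and 0.01 for +/- over +/+ at NSN.

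With 1 oocyte left out, the counts ranged from 2 to 6 and 4 to 9 for NSN over SN in +/- and -/-, from 1 to 4 and 4 to 8 for -/- over +/+ at NSN and SN, and from 0 to 4 and 4 to 8 for -/- over +/-. The replication-dependent median ranged from 0.11 (without oocyte 61) to 0.50 for NSN over SN in +/-. For -/- over +/- at SN it ranged from 0.04 (without oocyte 31) to 0.52, the variant median from -0.02 (without oocyte 7) to 0.22, and *H1f8* from -0.20 (without oocyte 7) to 0.38. At SN, log2 values over +/+ and +/- turned from 1.93 and 2.39 without oocyte 7 to -1.05 and -0.60 without oocyte 31 for *H1f2*, and from 1.95 and 1.92 to -0.68 and -0.71 for *H1f3*. Where -/- SN rests on 1 oocyte, that value has no spread. Under 10 normalized counts, counting error limits what can be seen.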
